A study of Mus musculus with 36 samples.

Results

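The delayed IFN gamma genes are 46 genes of mouse NIH-3T3 fibroblasts whose newly transcribed RNA was near the mock level in the first hour of interferon gamma and at least 2-fold above it 150-180 min after the start. They were chosen from 18193 genes, each read from its probe set with the highest mean over 36 arrays. A gene was taken where the group mean of IFN gamma minus mock was below 0.5 (log2) at 0-30 and at 30-60 min and at least 1.2 at 150-180 min, and where the IFN gamma mean at 150-180 min was at least 5. Of 54 genes that met these thresholds, 8 that the rule leaves out by name were set aside (Ccl8, Gbp2b, Gbp8, Nlrc5, Oas1b, Oas2, Psmb10 and Usp18). The 3 differences between IFN gamma and mock at 500 µM therefore chose the members and are given below as description, without a test.

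Cells took up 4-thiouridine (4sU), a modified nucleoside incorporated into RNA as it is made, for a set time window. The newly transcribed fraction was hybridised to Affymetrix arrays. NIH-3T3 is an established, immortal fibroblast line from mouse embryos. The treatments, given in fresh medium, were IFN gamma at 100 U/ml, IFN alpha at 100 U/ml, and mock, and each was labelled over 0-30, 30-60 or 150-180 min after the medium change with 500 µM 4sU, or over 0-60 min with 200 µM 4sU. Each of the 12 groups held 3 arrays. The labels number the arrays but do not say that they came from separate cultures, so the spread that p-values rest on is that between arrays and may be technical. All groups share the medium change, and mock is the only group without interferon.

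Interferon gamma binds a receptor on most cells, and its signal acts through gamma-activated sites (GAS) in promoters to switch on early genes, among them the transcription factor gene Irf1. Interferon alpha uses another receptor and acts mainly through the interferon-stimulated response element (ISRE), an element that IRF1 can also bind. In fibroblasts both interferons raise genes of antiviral defence and of antigen presentation by MHC class I.

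The cells carried the markers of their label. All 12 fibroblast markers passed the expression filter, a log2 value above 4 in at least 3 arrays, with a median level of 11.28 and Vim at 13.15. Of 12 macrophage markers 1 passed (Cd14 at 6.17), and of the 8 endothelial and 8 epithelial markers none did, the highest being Tek at 2.56 and Epcam at 3.2. All 46 members passed the filter, 40 of them also without the arrays of IFN gamma at 150-180 min and 6 only through them. Arrays of a group correlated at r of 0.97 to 0.995 across genes except in mock at 0-60 min, where array 1 correlated at 0.91 with its mates, so results from that window are given with and without it. Arrays give no counts; their number, 3 in each group, limits the precision.

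By role, 6 members act in nucleic acid sensing and antiviral defence (Zbp1, Ddx58, Bst2, Mov10, Trafd1 and Znfx1), 3 in ligation of ISG15 or ubiquitin (Herc6, Uba7 and Rnf114), 2 in MHC class I presentation (Tapbpl and H2-M3), and 2 are cytokine receptor chains (Il15ra and Il31ra). A further 9 act in transcription, chromatin or RNA processing (Batf2, Phf11d, Nmi, Parp11, Kat2b, Zeb2, Repin1, Rbfox2 and Mir155hg), 8 in cell death, signalling or metabolism, and 6 on the cytoskeleton or organelles. No role is stated here for the other 10. These roles were assigned after the values had been seen.

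**Figure D1:**
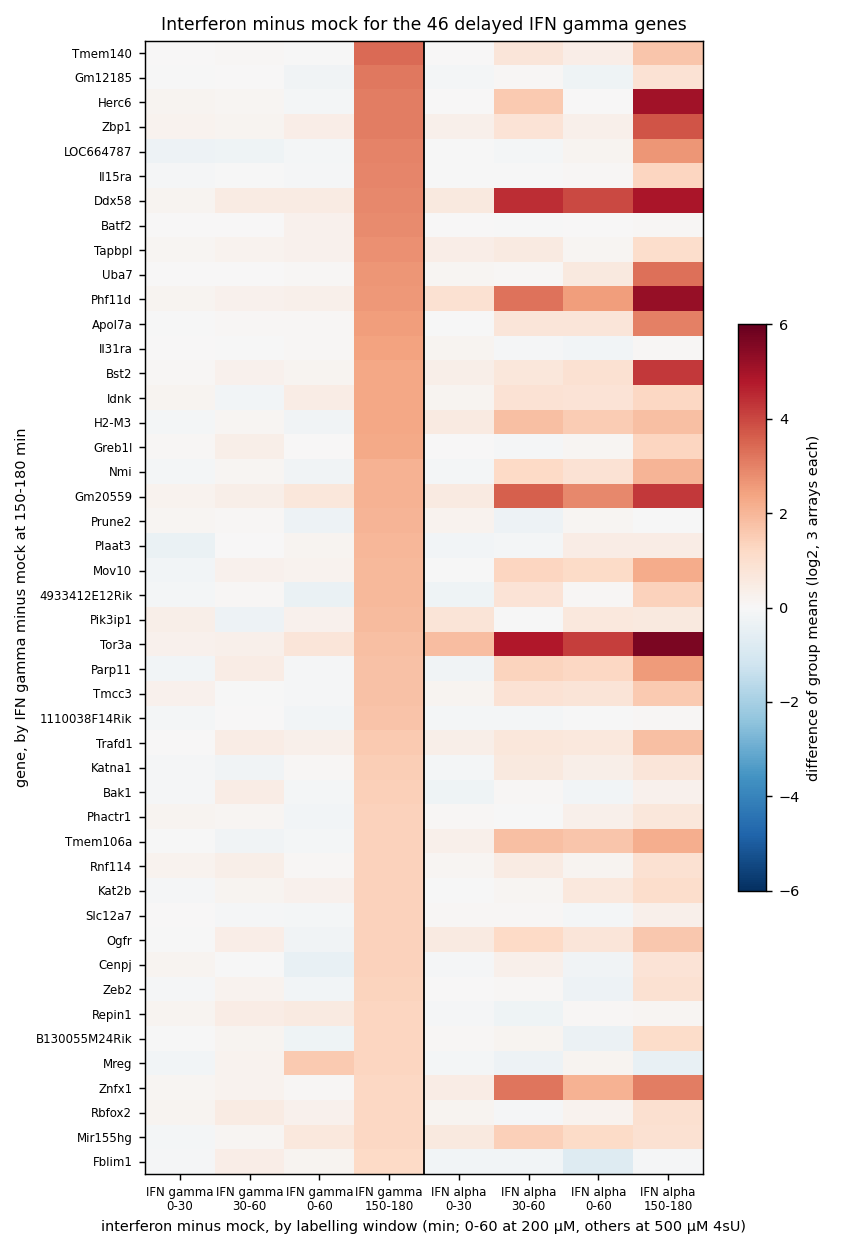
Heat map of interferon minus mock (log2, differences of means of 3 arrays) for the 46 members, ordered by IFN gamma minus mock at 150-180 min, with the IFN gamma windows on the left and the IFN alpha windows on the right. The IFN gamma columns at 0-30 and 30-60 min are pale by the rule, and the 0-60 min column is pale for all but Mreg; with IFN alpha, Ddx58, Phf11d, Gm20559, Tor3a and Znfx1 are already dark at 30-60 and at 0-60 min.

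Promoter sequence was not used by the rule. RefSeq promoters (GRCm38.p6, 250 bases before to 50 after the gene start) were found for 36 of the 46 members, 61 promoters in all. They were searched for a GAS, written TTCNNNGAA, for an ISRE, written GAAANNGAAA or TTTCNNTTTC on the other strand, and for a shorter IRF core, AANNGAAA or TTTCNNTT, which every ISRE match also holds. The promoters of 6 members are shown because they carry these motifs and belong to members whose values are described below: Tmem140 and Gm12185 have the largest late differences on the probe sets used, Bst2, Ddx58 and Parp11 were also high with IFN alpha, and Il31ra was not. Capitals mark GAS and ISRE matches, including matches that overlap, and each sequence runs 5′ to 3′ on the strand of its gene.
Tmem140: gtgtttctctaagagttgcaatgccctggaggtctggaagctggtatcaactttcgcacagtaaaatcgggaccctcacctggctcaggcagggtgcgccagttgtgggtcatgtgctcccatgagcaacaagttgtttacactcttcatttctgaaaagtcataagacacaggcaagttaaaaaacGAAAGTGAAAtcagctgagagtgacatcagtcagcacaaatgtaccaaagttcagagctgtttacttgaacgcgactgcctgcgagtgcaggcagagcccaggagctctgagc
Gm12185: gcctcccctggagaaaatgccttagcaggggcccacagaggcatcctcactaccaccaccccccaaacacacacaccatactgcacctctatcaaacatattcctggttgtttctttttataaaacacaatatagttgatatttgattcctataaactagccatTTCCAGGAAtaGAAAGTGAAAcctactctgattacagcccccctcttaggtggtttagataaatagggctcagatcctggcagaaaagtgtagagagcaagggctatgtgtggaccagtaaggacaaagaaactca
Bst2: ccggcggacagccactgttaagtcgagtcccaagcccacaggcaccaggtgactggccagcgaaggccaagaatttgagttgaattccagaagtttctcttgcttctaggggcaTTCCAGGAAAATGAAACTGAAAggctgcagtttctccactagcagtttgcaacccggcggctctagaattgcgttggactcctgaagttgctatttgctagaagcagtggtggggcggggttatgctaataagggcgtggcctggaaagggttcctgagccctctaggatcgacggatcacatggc
Ddx58: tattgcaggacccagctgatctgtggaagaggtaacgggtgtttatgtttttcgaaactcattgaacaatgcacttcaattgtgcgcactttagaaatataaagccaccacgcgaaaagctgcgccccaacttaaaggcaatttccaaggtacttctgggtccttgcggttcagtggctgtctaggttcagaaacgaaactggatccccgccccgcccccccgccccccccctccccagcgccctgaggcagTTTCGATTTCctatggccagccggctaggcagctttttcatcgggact
Parp11: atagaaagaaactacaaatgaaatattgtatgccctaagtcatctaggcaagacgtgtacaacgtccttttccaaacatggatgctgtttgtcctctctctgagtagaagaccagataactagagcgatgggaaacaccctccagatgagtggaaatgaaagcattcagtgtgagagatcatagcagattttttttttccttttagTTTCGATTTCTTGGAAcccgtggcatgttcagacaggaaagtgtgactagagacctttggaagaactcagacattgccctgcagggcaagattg
Il31ra: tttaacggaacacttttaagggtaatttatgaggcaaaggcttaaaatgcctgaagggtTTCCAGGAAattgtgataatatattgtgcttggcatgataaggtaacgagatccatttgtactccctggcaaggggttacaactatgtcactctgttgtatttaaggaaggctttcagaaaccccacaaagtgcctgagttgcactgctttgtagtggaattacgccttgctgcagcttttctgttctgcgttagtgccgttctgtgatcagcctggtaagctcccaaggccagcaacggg
The Tmem140 promoter (chr6:34862896-34863195, plus strand) holds an ISRE whose first base is at -63 from the start. The Gm12185 promoter (chr11:48927133-48927432, minus strand) holds a GAS at -86 and an ISRE at -75. The Bst2 promoter (chr8:71537423-71537722, minus strand) holds a GAS at -136 and 2 ISREs at -130 and -124, so that 3 matches form 1 run. The Ddx58 promoter (chr4:40239776-40240075, minus strand) holds an ISRE at 3 bases after the start. In the Parp11 promoter (chr6:127446590-127446889, plus strand) an ISRE at -44 overlaps a GAS at -37, and the Il31ra promoter (chr13:112580613-112580912, minus strand) holds a GAS at -191. A match is a run of letters and was not tested as a binding site.

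A GAS was found for 7 of the 36 members with a promoter (19.4%), against 618 of 7813 tested genes (7.91%). The other members with a GAS were H2-M3, Phactr1 and Zeb2. An ISRE was found for 6 members (16.7%), Ogfr being the sixth, against 3.62% of tested genes, and an IRF core for 19 members (52.8%), against 20.4%. For comparison, a list of early IFN gamma response genes had a GAS in 29.4% and an ISRE in 47.1% of the 17 genes with a promoter. Members had 61 promoters for 36 genes, tested genes 9999 for 7813 and the early list 19 for 17. A member thus had more sequence searched, which raises its share. Per promoter, in the order members, tested genes and early list, a GAS was found in 13.1%, 6.56% and 26.3%. An ISRE was found in 9.84%, 2.98% and 42.1%, and an IRF core in 42.6%, 17.5% and 52.6%. These shares are descriptions of small sets with no test.

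**Figure D2:**
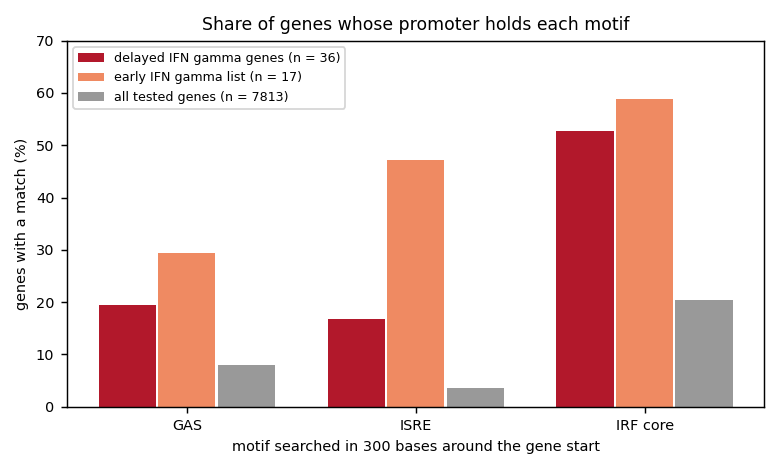
Bars give the percent of genes with at least 1 match to each motif in their 300-base RefSeq promoters, for the delayed IFN gamma genes, the early IFN gamma list and all tested genes. The delayed genes lie above all tested genes for the 3 motifs and below the early list, with the widest gap to the early list at the ISRE (16.7% against 47.1%). The delayed genes had more promoters per gene (61 for 36 genes) than all tested genes (9999 for 7813) or the early list (19 for 17).

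At 150-180 min the difference between IFN gamma and mock ran from 1.2 to 3.42 (log2) with a median of 1.91, against -0.10 over all tested genes. It was at least 2 in 21 members and at least 3 in 4. Every IFN gamma array lay above every mock array in 45 of 46 members, a pattern that 10.2% of tested genes showed, and 2.85% of tested genes were at least 2-fold higher. Since the rule used this contrast, nothing is read from these counts. The exception to the separation was Rbfox2, a splicing regulator, with 7.61, 8.61 and 8.10 in IFN gamma cells, against 6.37, 6.49 and 7.80 in mock cells. At 0-30 and 30-60 min the member medians were 0.03 and 0.11.

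Members near the thresholds show how the set is bounded. Just inside the late threshold lay Fblim1 (1.201), Mir155hg (1.219) and Rbfox2 (1.227), and just outside it Irf2 (1.188), Alms1 (1.141) and Efna5 (1.125). At 30-60 min Ddx58 (0.485), Rbfox2 (0.475) and Repin1 (0.466) were just inside, and Trim56 (0.515), Ntn1 (0.537) and Fbxw17 (0.577) just outside. At 0-30 min Pik3ip1 (0.367), Tmcc3 (0.245) and Tor3a (0.243) were nearest inside, and only Serpinb9 (0.535) was kept out by that limit alone. For the level limit, B130055M24Rik (5.059), Greb1l (5.072) and Apol7a (5.128) were inside, and Tent5a (4.915), Sp100 (4.756) and Plac8 (4.678) outside.

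The mock mean at 150-180 min was under 4 in 19 members and at least 4 in 27. Below 4 the arrays read close to their background, so a fold change there has background, not a measured level, as its base. The early windows have this limit too, also for some members with a late mock mean of at least 4. At 30-60 min Cenpj averaged 3.86 in mock cells and 3.84 with IFN gamma, and H2-M3 3.38 and 3.5. Where both groups lie under 4, the absence of an early rise cannot be read. Levels and differences below are on the log2 scale of the arrays. Levels were not compared between genes, since probe sets differ in brightness.

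Tmem140 is a member whose mock arrays were under 4. It read 5.97, 5.87 and 5.87 in IFN gamma cells at 150-180 min, against 2.47, 2.52 and 2.47 in mock cells, a difference of 3.42, the largest on the probe sets used. At 30-60 min it read 2.52, 2.63 and 2.55 with IFN gamma, against 2.49, 2.51 and 2.49 in mock cells. Its values in the first hour lay under the filter value in both groups, where no level can be read, and the rule used these arrays. Gm12185, a predicted gene on chromosome 11, read 5.63, 5.87 and 5.72 with IFN gamma, against 2.71, 2.54 and 2.46 in mock cells.

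Among the sensors and antiviral effectors, Zbp1, a sensor of Z-form nucleic acid that can start necroptosis, read 6.18, 5.41 and 5.69 with IFN gamma at 150-180 min, against 2.65, 2.70 and 2.71 in mock cells. Ddx58 encodes RIG-I, a helicase that senses viral RNA. It read 7.64, 7.40 and 7.54 with IFN gamma, against 4.75, 4.56 and 4.68 in mock cells, so its mock level was above 4. Bst2, the tetherin that holds budding virions at the cell surface, read 6.03, 6.6 and 5.93 with IFN gamma, against 3.92, 3.71 and 3.92 in mock cells. The groups did not overlap for any of these 3 genes. The late differences of the other 3 were 1.95 for Mov10, an RNA helicase that restricts retroelements, 1.55 for Trafd1, a negative regulator of innate signalling, and 1.27 for Znfx1, a helicase-like zinc finger protein that senses RNA.

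In the ISG15 pathway, Uba7 encodes the enzyme that activates this ubiquitin-like protein and Herc6 its main ligase in the mouse. Herc6 read 5.71, 6.34 and 5.79 with IFN gamma at 150-180 min, against 3.02, 2.81 and 2.80 in mock cells. Uba7 read 5.93, 5.78 and 5.62 with IFN gamma, against 3.07, 3.16 and 3.15 in mock cells. Both were under the filter value of 4 in mock cells and above it with IFN gamma, with no overlap. Rnf114, a ubiquitin ligase, was well above background in both groups and differed by 1.40.

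Of the antigen presentation members, Tapbpl encodes TAPBPR, which edits the peptides of MHC class I, and H2-M3 a non-classical class I molecule that presents formylated peptides. Tapbpl read 5.89, 5.71 and 6.04 with IFN gamma, against 2.94, 3.38 and 3.11 in mock cells. H2-M3 read 7.56, 7.31 and 7.47 with IFN gamma, against 5.14, 5.2 and 5.05 in mock cells. The arrays of the groups lay more than 2 log2 units apart in both genes.

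Of the receptor chains, Il15ra, which presents interleukin 15 to neighbouring lymphocytes, read 5.86, 5.72 and 4.64 with IFN gamma, against 2.51, 2.55 and 2.42 in mock cells. Array 3 was the lowest of the IFN gamma arrays by about 1 log2 unit, and this was the widest spread of any member in that group (SD 0.67). Il31ra, a chain of the interleukin 31 receptor, read 5.55, 5.52 and 5.26 with IFN gamma, against 2.92, 2.63 and 3.5 in mock cells. The groups did not overlap in either gene.

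Among the transcription and chromatin members, Batf2, a basic leucine zipper factor, lay between 2.30 and 2.43 in every IFN alpha and mock array. It read 5.46, 4.91 and 5.09 with IFN gamma at 150-180 min, against 2.35, 2.35 and 2.32 in mock cells. Phf11d, a PHD finger gene, read 6.47, 5.85 and 6.09 with IFN gamma, against 3.56, 3.57 and 3.44 in mock cells. Neither gene's groups overlapped. Late differences of the others ran from 1.22 to 2.08: Nmi, an interferon-induced adaptor protein, differed by 2.08, Parp11, an ADP-ribosyltransferase, by 1.75, and Kat2b, a histone acetyltransferase, by 1.39.

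Mir155hg, the host transcript of miR-155, read 6.80, 7.33 and 7.56 with IFN gamma at 150-180 min, against 5.55, 5.89 and 6.59 in mock cells. The mature miR-155-5p that RefSeq annotates at this locus (chr16:84714143-84714165, plus strand, GRCm38.p6) is shown to identify the product, with its seed, bases 2 to 8, in capitals; the arrays read the host transcript and give no value for the miRNA.
mmu-miR-155-5p: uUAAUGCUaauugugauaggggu
The other members of this group were Repin1 and Zeb2, both zinc finger factors, and the splicing regulator Rbfox2, with late differences of 1.3, 1.34 and 1.23.

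Of the 8 members in cell death, signalling or metabolism, Apol7a, of the apolipoprotein L family, read 5.26, 5.05 and 5.08 with IFN gamma at 150-180 min, against 2.54, 2.69 and 2.68 in mock cells. The other differences were 2.33 for Idnk, a gluconokinase, 2.00 for Plaat3, a phospholipase and acyltransferase, and 1.88 for Pik3ip1, an inhibitor of PI3 kinase. Tor3a, a torsin ATPase, differed by 1.82, Bak1, which permeabilises mitochondria in apoptosis, by 1.43, Slc12a7, a potassium-chloride cotransporter, by 1.38, and Ogfr, a receptor for an opioid growth factor, by 1.37. The 6 cytoskeletal and organelle members had smaller differences, from 1.2 to 1.74. These were Tmcc3, a membrane protein of the endoplasmic reticulum, Katna1, which severs microtubules, Phactr1, which binds actin and protein phosphatase 1, Cenpj, needed for centriole growth, Mreg, which acts in melanosome transport, and Fblim1, which binds filamin.

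The members with no role stated differed by 1.3 to 3.42. LOC664787 read 6.18, 6.36 and 6.70 with IFN gamma at 150-180 min, against 3.43, 3.49 and 3.40 in mock cells. Besides Tmem140, Gm12185 and LOC664787, differences were 2.28 for Greb1l, 2.07 for Gm20559, 2.02 for Prune2, 1.93 for 4933412E12Rik, 1.69 for 1110038F14Rik, 1.40 for Tmem106a and 1.3 for B130055M24Rik.

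**Figure D3:**
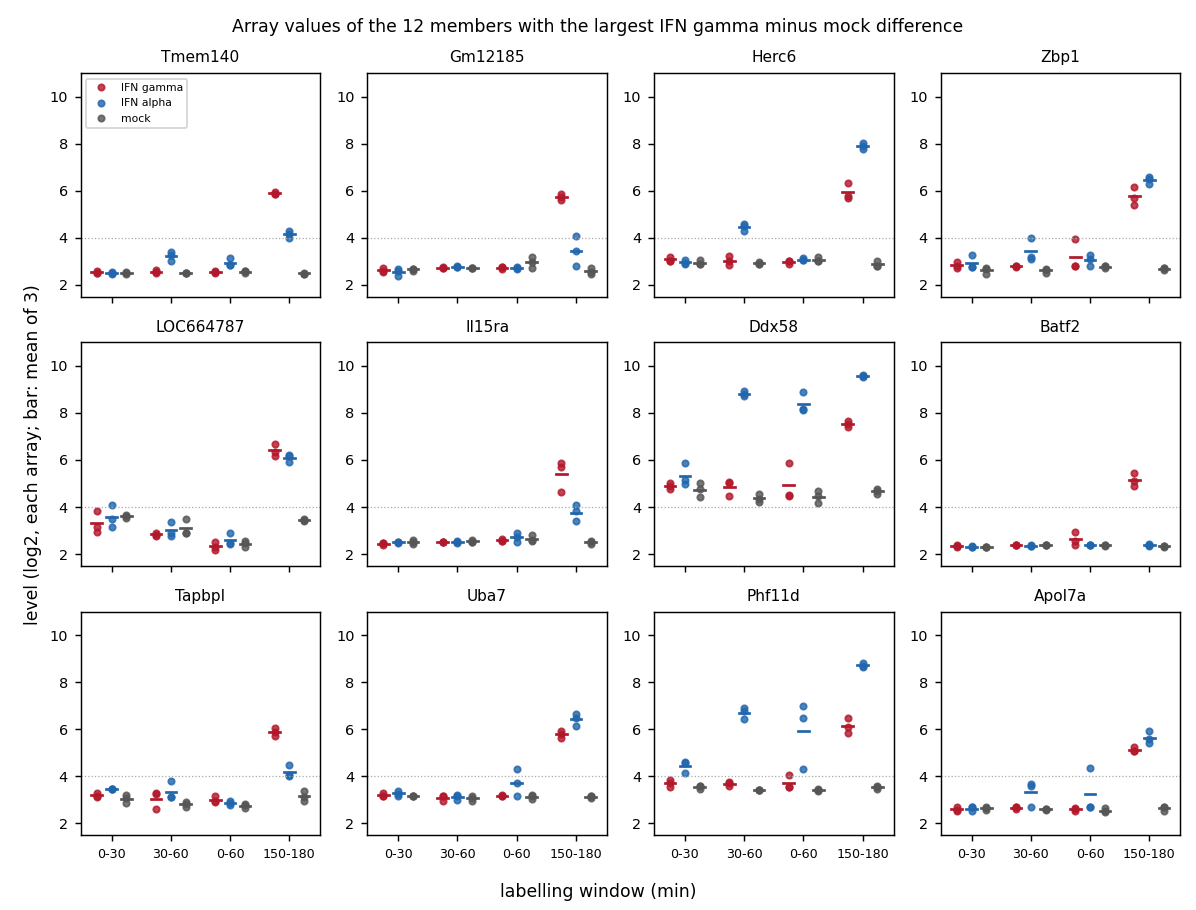
Level (log2) in each array of the 12 members with the largest late difference, by labelling window, with IFN gamma left, IFN alpha in the middle and mock right in each window, a bar at each mean of 3 arrays and a dotted line at the filter value of 4. IFN gamma points sit near the mock level until 150-180 min, apart from single arrays at 0-60 min. Batf2 lies under the dotted line with IFN alpha and with mock in every window, while Ddx58 and Phf11d lie above 8 and 6 with IFN alpha at 30-60 min.

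A late difference can come with a higher IFN gamma level or with a lower mock level, so each treatment's own level at 150-180 min was set against its level at 0-30 min. With IFN gamma the level was at least 1 higher at 150-180 min than at 0-30 min in 36 members, while the median over all tested genes was -0.03. The rule used these arrays and the share of all genes past this limit is not given, so nothing is read from the count. The IFN gamma level was less than 0.5 higher in 4, Fblim1, Mir155hg, Rbfox2 and Zeb2, for which the label of a delayed rise does not describe the level. Zeb2 read 8.12, 8.63 and 8.70 with IFN gamma at 150-180 min and 8.47, 8.65 and 8.60 with IFN gamma at 0-30 min. Mock cells read 6.71, 6.89 and 7.83 at 150-180 min and 8.43, 8.74 and 8.81 at 0-30 min. The IFN gamma level of Zeb2 was thus about the same in both windows, and the mock level was lower in the last. Mock was at least 0.5 lower at 150-180 than at 0-30 min in 8 members, these 4 and B130055M24Rik, Phactr1, Prune2 and Slc12a7, and at least 0.5 higher in Mreg and Pik3ip1. The median mock change was -0.07 over the members and 0.03 over all tested genes. The rule used the mock arrays too, so these counts are description. Against 30-60 min, the IFN gamma level of Phactr1 differed by -0.17 and that of B130055M24Rik by -0.06, while mock differed by -1.47 and -1.18, so these 2 late differences also came with a lower mock level.

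**Figure D4:**
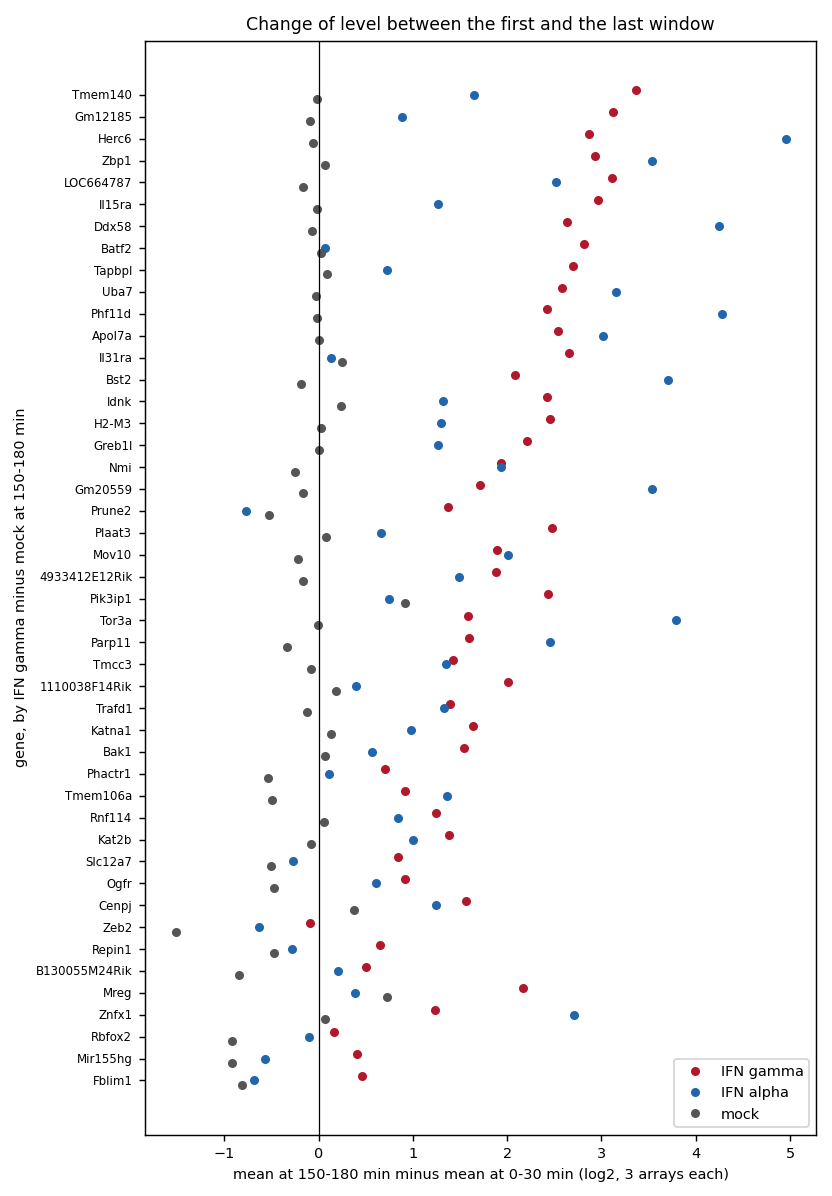
Mean level at 150-180 min minus mean level at 0-30 min (log2, 3 arrays each) for IFN gamma, IFN alpha and mock in each of the 46 members. Mock points lie near 0 for most members and between -1.52 and -0.81 for Zeb2, Rbfox2, Mir155hg, B130055M24Rik and Fblim1, whose IFN gamma points lie between -0.09 and 0.50.

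The difference also depends on the probe set for some members. Of 46 members, 30 had further probe sets, and 33 of these 53 passed the filter: 20 showed a late difference of at least 1.2, 9 of 0.5 to 1.2 and 4 below 0.5. The 4 were of Herc6 (0.39), Ogfr (0.46), Tmem106a (0.37) and Tor3a (0.42). Only that of Ogfr averaged above 4 in mock cells (5.93), and other kept probe sets showed 3.16 for Herc6 and 1.39 for Tor3a. With every kept probe set required to meet 1.2, 10 of the 46 members would be lost. A second Ddx58 probe set was 1.46 higher with IFN gamma at 30-60 min, and a second Gm20559 probe set 1.29 higher, so these 2 genes would not count as delayed by those probes. The other kept Fblim1 probe set also missed the rule, with 0.60 at 30-60 min and 0.57 at 150-180 min. For Il15ra the other kept probe set showed a larger late difference, 4.72. A probe set name ending in x_at, which marks probes that can also bind other transcripts, applied to Gm20559 and Rnf114, and one ending in s_at, which several transcripts share, to Tor3a and Kat2b, so their reading may include related transcripts.

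Whether the delay also held in arrays that did not choose the members was asked with the 0-60 min window, labelled at 200 µM. IFN gamma minus mock had a median of 0.07 over the 46 members and -0.05 over all 9549 tested genes. By limma with Benjamini-Hochberg adjustment over all tested genes, 1 member was higher and 0 were lower, against 3.83% of tested genes higher and 2.90% lower, so the members' share (2.17%) lay near the background. At an unadjusted p under 0.05 the counts were 5 higher and 1 lower, against 10.5% and 11.8% of tested genes. Of the 46, 6 passed the filter only through IFN gamma at 150-180 min (Tmem140, Gm12185, Il15ra, Batf2, Il31ra and Greb1l) and read at background in most other arrays; over the other 40, a split made after seeing the data, the counts were the same 1 and 0. In the same comparison all 19 tested genes of the early IFN gamma list were higher, with a median of 4.08, and Irf1 was higher by 4.73 ± 0.19 (SE, adjusted p = 1.7e-18). That list was drawn up with knowledge of these data and is not independent evidence of its direction.

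The member that rose was Mreg, which read 5.72, 5.14 and 5.25 with IFN gamma at 0-60 min, against 3.6, 3.71 and 4.04 in mock cells. The difference was 1.59 ± 0.29 (SE of the fit, n = 3 arrays each, limma adjusted p = 0.000337), and the groups did not overlap. It was 1.49 without mock array 1 (adjusted p = 0.0029), and the adjusted p was 0.0952 with the replicate number as a block and only the arrays compared. At 0-30 and 30-60 min Mreg differed by -0.17 and 0.21, at the other 4sU dose. With the replicate block within windows, 5 members were called higher: Mreg, Tor3a (0.73), Gm20559 (0.67), Mir155hg (0.64) and Repin1 (0.54), while that fit called 8.59% of tested genes higher. Without mock array 1, 3 were called, Mreg and Repin1 (0.68) higher and Tmcc3 (-0.69) lower. The share of tested genes called in that fit is not given, so nothing is read from the count.

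For members such as Tmem140 and Herc6, which read under 4 in both groups at 0-60 min, the arrays cannot bound the change. Ddx58 read above 4 and differed by 0.51, with a 95% interval of -0.05 to 1.06. Its arrays read 4.50, 5.89 and 4.46 with IFN gamma, against 4.45, 4.70 and 4.18 in mock cells, so array 2 of the IFN gamma group was the high one. The same array was the highest of its group for Zbp1 (3.96), Gm20559 (7.25) and Tor3a (5.34), and its part in these differences was not tested. An interval of this width does not show that the gene was unchanged.

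With IFN alpha over the same 0-60 min, 10 of the 46 members were higher and 0 lower by limma, against 1.91% of all tested genes higher and 0.0733% lower. The members' median difference was 0.33, against 0.03 over all tested genes. The counts at an unadjusted p under 0.05 were 21 higher and 1 lower, against 10.5% and 3.57% of tested genes. Each of the 10 was among the 40 members that pass the filter without IFN gamma at 150-180 min. The 2 comparisons at 0-60 min share their mock arrays.

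Tor3a rose most, reading 7.87, 8.74 and 7.92 with IFN alpha, against 3.73, 4.23 and 4.20 in mock cells, a difference of 4.13 ± 0.28 (SE, adjusted p = 1.3e-12). Ddx58 read 8.15, 8.90 and 8.14 with IFN alpha, against 4.45, 4.70 and 4.18 in mock cells, a difference of 3.96 ± 0.27 (adjusted p = 2e-12). In both genes every IFN alpha array stood more than 3 log2 units above every mock array. Gm20559 read 9.01, 9.47 and 7.65 with IFN alpha, against 5.71, 6.02 and 5.80 in mock cells (2.87 ± 0.29, adjusted p = 9.75e-09). Phf11d read 6.49, 7.0 and 4.30 with IFN alpha, against 3.37, 3.44 and 3.42 in mock cells (2.52 ± 0.34, adjusted p = 3.73e-06). Array 3 was the low IFN alpha array in both of these genes, and for Phf11d the spread was the widest of any member in any group (SD 1.43).

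Smaller rises with IFN alpha over 0-60 min were seen for Znfx1 (2.08 ± 0.30), Tmem106a (1.66 ± 0.34), H2-M3 (1.5 ± 0.21), Mov10 (1.17 ± 0.25), Bst2 (0.92 ± 0.21) and Nmi (0.89 ± 0.24), with limma adjusted p from 1.15e-05 to 0.0456. Znfx1 read 7.46, 8.09 and 6.70 with IFN alpha, against 5.45, 5.93 and 4.64 in mock cells. H2-M3 read 4.84, 5.97 and 4.76 with IFN alpha, against 3.76, 3.46 and 3.85 in mock cells. Bst2 read 4.90, 5.05 and 4.25 with IFN alpha, against 3.94, 3.90 and 3.6 in mock cells. None of these 3 genes overlapped between the groups. Mov10 read 4.94, 4.93 and 3.98 with IFN alpha, against 3.6, 3.24 and 3.51 in mock cells. Tmem106a read 4.90, 5.43 and 4.13 with IFN alpha, against 3.77, 2.68 and 3.02 in mock cells. Nmi read 4.47, 5.10 and 4.72 with IFN alpha, against 4.16, 3.38 and 4.08 in mock cells. These 3 did not overlap either, though in each of them, and in Bst2, single arrays came within 0.5 log2 units of the other group. The share of tested genes without overlap in this comparison is not given, so nothing is read from the separation.

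The number of rises depends on which arrays set the spread. When only the arrays compared were fitted, 2 of the 10 were called, Ddx58 and Tor3a, while that fit called 0.461% of tested genes higher. With the replicate block added 3 were called (Znfx1 the third), against 0.398% of tested genes. With the block within windows the count was 14, against 3.76%. Without mock array 1 it was 12 and without IFN alpha array 2 it was 6, and for these fits the share of tested genes is not given. Herc6 read 3.04, 3.13 and 3.05 with IFN alpha, against 3.18, 3.01 and 3.01 in mock cells, all under 4, so that no response could be read for it in this window.

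**Figure D5:**
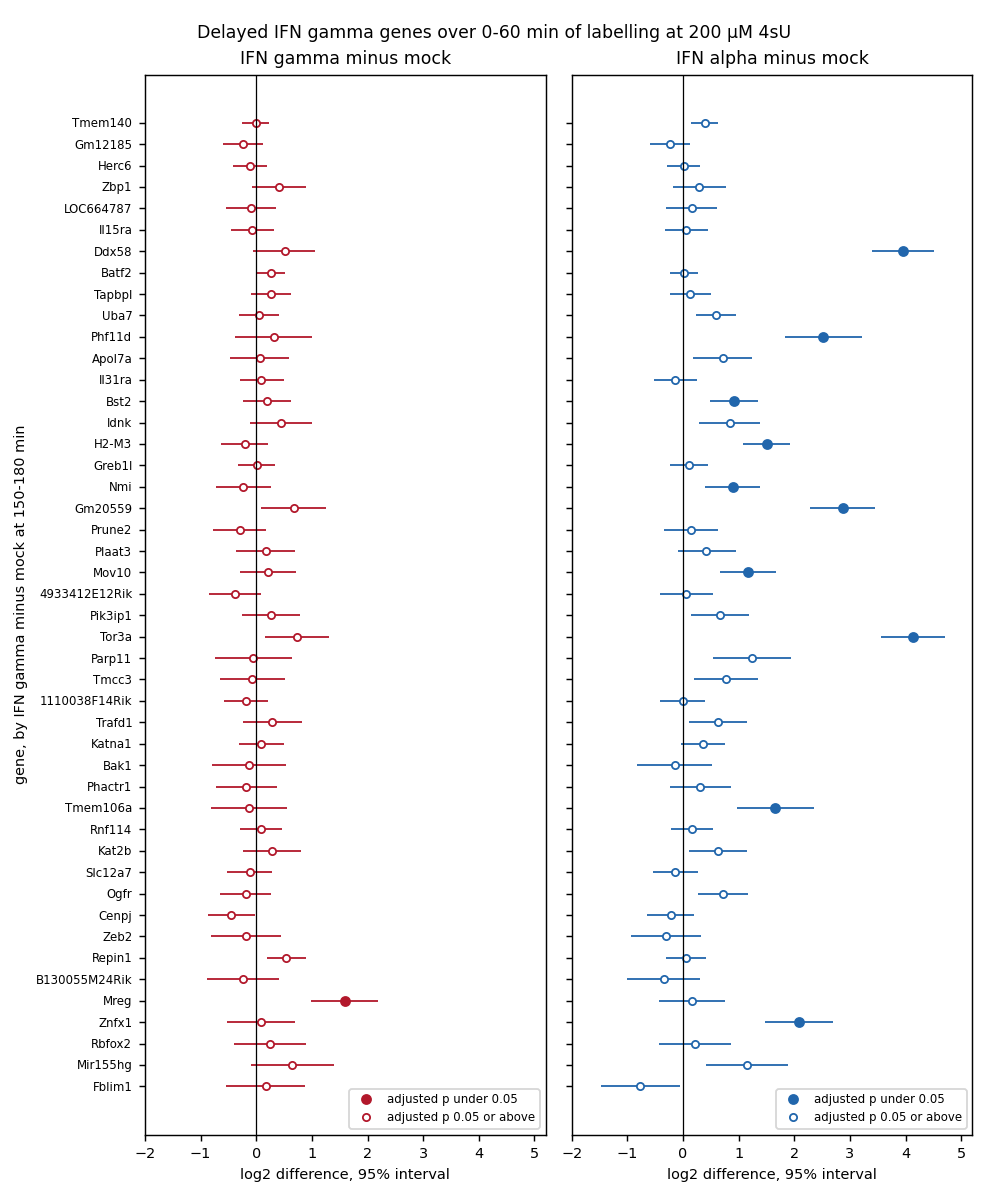
Difference from mock at 0-60 min (log2, limma estimate with 95% interval, 3 arrays a group) for IFN gamma on the left and IFN alpha on the right; filled points passed an adjusted p of 0.05. With IFN gamma 1 point is filled, Mreg, and with IFN alpha 10 are, led by Tor3a at 4.13 and Ddx58 at 3.96.

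The direct test of the interferons at 0-60 min found 13 members lower and 1 higher with IFN gamma than with IFN alpha, against 2.36% of tested genes lower and 1.65% higher. The rule kept genes that IFN gamma did not raise in the first hour, though in other arrays. A member that IFN alpha raised in that hour was thus favoured to come out lower with IFN gamma, so nothing is read from the direction of these counts. The 10 genes above were among the 13, with differences from -3.45 ± 0.27 for Ddx58 and -3.40 ± 0.28 for Tor3a to -0.73 ± 0.21 for Bst2. The other 3 were Parp11 (-1.29 ± 0.34, adjusted p = 0.0223), Ogfr (-0.91 ± 0.22, adjusted p = 0.0104) and Tmem140 (-0.40 ± 0.12, adjusted p = 0.0479). The Tmem140 values lay under 4 in both groups, and its call was lost in 13 of 17 alternatives, 5 of 6 that left out an array among them, and with the replicate block and only the arrays compared (adjusted p = 0.118). Calls were also lost in 12 of 18 alternatives for Bst2, 6 of 18 for Parp11 and 4 of 17 for Mov10. With an array left out these were lost in 4, 4 and 3 of 6 fits. The calls of Ddx58, Tor3a, Znfx1, H2-M3, Nmi, Tmem106a and Mreg held in every alternative. Parp11 read 5.01, 5.48 and 4.38 with IFN gamma, against 6.37, 6.45 and 5.92 with IFN alpha. The member higher with IFN gamma was Mreg (1.42 ± 0.29, adjusted p = 0.00177), which read 4.13, 4.14 and 3.57 with IFN alpha. With only the arrays compared, 8 members were called, while that fit called 0.67% of tested genes lower and 0.775% higher. With the replicate block added 17 were called, 14 lower and 3 higher, against 7.71% and 4% of tested genes. Of the 14 members called in the main fit, 13 were among these 17, Tmem140 being the exception.

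At 150-180 min 27 members were also at least 2-fold higher with IFN alpha than in mock cells, against 2.13% of tested genes. This comparison shares its mock arrays with the rule, so members with a low mock level there were favoured and no test is given. Every IFN alpha array lay above every mock array in 38 members, against 6.87% of tested genes. By timing, 12 of the 27 were at least 2-fold higher with IFN alpha at 30-60 min too: Ddx58, Gm20559, H2-M3, Herc6, Mov10, Nmi, Ogfr, Parp11, Phf11d, Tmem106a, Tor3a and Znfx1. The other 15 were past 2-fold only at 150-180 min. Mir155hg was past it at 30-60 min alone, where 13 members were in all, against 1.84% of tested genes, and at 0-30 min 1 member was (Tor3a, 1.84), against 0.471%.

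The remaining 18 members were under 2-fold with IFN alpha in both windows: Batf2, Il31ra, Prune2, Gm12185, 1110038F14Rik, Bak1, Cenpj, Fblim1, Katna1, Mreg, Phactr1, Pik3ip1, Plaat3, Rbfox2, Repin1, Rnf114, Slc12a7 and Zeb2. Batf2 read 2.43, 2.37 and 2.36 with IFN alpha at 150-180 min, 0.05 above mock. Il31ra read 2.99, 3.62 and 2.60 with IFN alpha, also 0.05 above mock, and Prune2 read 4.48, 4.58 and 4.15, which is -0.01 from mock. Prune2 was thus near the mock level with IFN alpha while its IFN gamma arrays stood well above it. Batf2 and Il31ra passed the filter only through IFN gamma at 150-180 min. Their IFN alpha and mock arrays lay under 4, where no level can be read. Gm12185 was spread widely between IFN alpha arrays, at 3.43, 4.07 and 2.82.

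Set directly against each other at 150-180 min, IFN gamma was at least 2-fold above IFN alpha in 17 members and at least 2-fold below it in 7, against 1.61% and 1.01% of tested genes. These arrays include the IFN gamma arrays of the rule, so this is description too. The largest differences toward IFN gamma were Batf2 (2.77), Il31ra (2.37), Gm12185 (2.30) and Prune2 (2.03). Batf2, Il31ra and Gm12185 passed the filter only through these IFN gamma arrays, and their IFN alpha means lay under 4. The 7 lower with IFN gamma were Tor3a (-3.80), Phf11d (-2.59), Gm20559 (-2.16), Ddx58 (-2.05), Herc6 (-1.96), Bst2 (-1.89) and Znfx1 (-1.79). Tor3a read 6.05, 6.04 and 6.22 with IFN gamma, against 9.88, 10 and 9.85 with IFN alpha, and these groups lie far apart.

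The arrays with IFN alpha entered the rule only through the choice of a probe set by its mean, so their change between windows was tested. From 0-30 to 150-180 min 29 members rose and 1 fell, against 5.19% and 5.64% of tested genes, and the members' median change was 1.26, against -0.02 over all tested genes. Without the 6 members that pass the filter only through IFN gamma at 150-180 min, 25 rose and 1 fell of 40. Among the 40, Tapbpl, Zbp1, Uba7, Apol7a and LOC664787 would not pass without the IFN alpha and IFN gamma arrays at 150-180 min. A rise to that window with IFN alpha, from 0-30 or from 30-60 min, was thus favoured in them. In the 29, mock changed between -0.50 and 0.37 over the same windows, and all 10 members that rose with IFN alpha over 0-60 min were among them. In the antiviral list, 47 of the 51 tested genes that are not members rose as well, so the members were not alone in this.

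Herc6 rose most with IFN alpha. It read 7.76, 8.05 and 7.92 at 150-180 min, against 2.95, 3.04 and 2.88 at 0-30 min, a change of 4.96 ± 0.15 (SE, limma adjusted p = 3.32e-22). Its 0-30 min arrays lay under 4, so the size of this change has background as its base. Phf11d read 8.83, 8.70 and 8.65, against 4.58, 4.15 and 4.62 at 0-30 min (4.28 ± 0.34, adjusted p = 3.06e-11). Ddx58 read 9.61, 9.54 and 9.58, against 5.87, 4.98 and 5.15 at 0-30 min (4.24 ± 0.27, adjusted p = 1.58e-13). The windows did not overlap in any of these genes. Tor3a (3.79 ± 0.28), Bst2 (3.71 ± 0.21), Gm20559 (3.54 ± 0.29) and Zbp1 (3.54 ± 0.24) followed, with adjusted p from 7.31e-15 to 4.61e-11. Zbp1 averaged under 4 at 0-30 min, so its change too has background as its base. Bst2 read 8.0, 8.02 and 8.22 at 150-180 min, against 4.61, 3.94 and 4.56 at 0-30 min.

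The member that fell was Prune2, which read 4.48, 4.58 and 4.15 with IFN alpha at 150-180 min, against 4.74, 5.54 and 5.24 at 0-30 min (-0.77 ± 0.23, adjusted p = 0.0288). Its mock level was also lower at 150-180 than at 0-30 min, by a difference of -0.53 that was not tested. Mir155hg (-0.56 ± 0.36, adjusted p = 0.389) and Zeb2 (-0.64 ± 0.31, adjusted p = 0.217) did not pass the test.

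The 30-60 min window lay lower than the others as a whole, which has to be read beside any comparison with it: the median change of all tested genes was -0.51 from 0-30 to 30-60 min and 0.50 from 30-60 to 150-180 min with IFN alpha. From 0-30 to 30-60 min 15 members rose and 9 fell, against 10% and 51.3% of tested genes. Ddx58 (3.48 ± 0.27), Gm20559 (2.65 ± 0.29), Tor3a (2.69 ± 0.28), Znfx1 (2.27 ± 0.30), Phf11d (2.25 ± 0.34) and Herc6 (1.51 ± 0.15) rose most. From 30-60 to 150-180 min 30 rose and 2 fell, against 50.6% and 10.6%. Bst2 (3.87 ± 0.21), Herc6 (3.44 ± 0.15), Uba7 (3.30 ± 0.18), LOC664787 (3.09 ± 0.22) and Zbp1 (3.04 ± 0.24) rose most, and Mir155hg (-1.35 ± 0.36) and Phactr1 (-0.73 ± 0.27) fell. Uba7, LOC664787 and Zbp1 averaged under 4 at 30-60 min, and Herc6 at 0-30 min, so their changes from these windows have background as their base. Bst2 and Ddx58 thus had different courses: Bst2 read 4.21, 4.04 and 4.38 at 30-60 min, near its first level, while Ddx58 read 8.81, 8.71 and 8.93, most of the way to its last level. The mock mean of Bst2 was 4.03 at 0-30 and 3.51 at 30-60 min. Against mock, Bst2 with IFN alpha differed by 0.34 and 0.70 in these windows, so its level near the first does not show that it had not responded.

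Genes of the same pathways outside the set give the setting. Of 17 tested genes of interferon signalling that are not members, 8 were higher and 0 lower with IFN gamma at 0-60 min. Among them were Stat2 (3.94 ± 0.42) and Irf9 (3.30 ± 0.17), which code for transcription factors of the interferon alpha pathway. Irf7 differed by 0.13, with both means under 4. Of 51 antiviral genes, 18 were higher and 1 lower with IFN gamma at 0-60 min, led by Samhd1 (3.61 ± 0.19), and 38 were higher with IFN alpha, led by Usp18 (6.29 ± 0.50). Of 14 genes of the MHC class I pathway, 5 were higher with IFN gamma, led by the peptide transporter gene Tap1 (5.42 ± 0.28). The members Tapbpl and H2-M3 differed by 0.27 and -0.21 there. Both read under 4 in IFN gamma and mock cells in that window, so the arrays cannot bound their change. Irf1, whose product binds the ISRE, averaged 12.73, 12.99 and 12.88 with IFN gamma at 0-30, 30-60 and 150-180 min, against 7.59, 7.14 and 7.80 in mock cells, so it was high in each window. With IFN alpha it averaged 9.75, 11.22 and 8.98.

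Some members lie next to other genes that were high with IFN gamma at 150-180 min. Of the 46 members, 6 had a tested neighbour at least 2-fold higher there (13.0%), against 513 of 9515 tested genes that could be placed (5.39%). The rule used this contrast and a neighbour can itself be a member, so the shares are description and nothing is read from them. The neighbours of Gm12185 are Irgm1 (6.25) and Ifi47 (7.96), 1110038F14Rik lies beside Apol6 (6.75), and Gm20559 beside Samd9l (3.34). Apol7a and Rbfox2 neighbour each other, Rbfox2 also lies beside Apol6, and Greb1l lies beside Rock1 (1.10). Apol7a counts only through Rbfox2 (1.23), a member that the rule had chosen for this difference. Whether transcripts of a neighbour reach a member's probe set was not tested.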

How the data were processed

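Newly transcribed RNA from 36 NIH-3T3 samples in 12 groups of 3 was hybridised to Affymetrix Mouse 430 2.0 arrays. The deposited values are log2 values that the authors made with GCRMA, per the submitters' processing notes; its version is not given in the sources used here. They ran from 1.34 to 14.82, with array medians from 3.13 to 3.27, and no further normalization was applied. GCRMA subtracts modelled background, so values under about 4 carry little signal.

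Of 45101 probe sets, 34945 carry 1 gene symbol in the platform annotation, 932 several, 9160 none and 64 are controls; only those with 1 symbol were used. Genes with a log2 value above 4 in at least 3 arrays were tested (9549) with limma 3.58.1 in R 4.3.3: 12 group means over all 36 arrays, eBayes with a trend, two-sided p, Benjamini-Hochberg adjustment over all tested genes and a threshold of 0.05. The script was tested on simulated data. The text names all 46 members. Other genes are named from lists of known pathways or cell type markers, or because the rule left them out by name. Further genes are named because they lay just outside a threshold or lie next to a member. Members, lists and roles were chosen with earlier results of these data known.

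Replicate numbers paired the arrays in every pair at 0-30, 0-60 and 30-60 min (r of deviations from 0.18 to 0.69) and in 7 of 9 pairs at 150-180 min (-0.29 to 0.69), and counts of calls with the replicate block are given for the 0-60 min comparisons. Alternatives were the filter, normalization, array weights, the replicate block, only the arrays compared, leaving out each array, and other thresholds of the rule. Promoter and miRNA sequences came from RefSeq (GRCm38.p6).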

Additional observations from a re-analysis of the deposited data

How the results depend on the processing

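Having 3 arrays in a group limits the precision, and values under 4 lie near background. The counts of genes called depended on which arrays set the spread. For IFN gamma minus mock at 0-60 min, 643 genes were called. There were 79 with only the arrays compared, 415 with array weights, 1949 with the replicate block within windows, 73 with the block and only the arrays compared, and 419 to 1670 when each array was left out. Its 1 member became 2 with log values after adding 16, with array weights and with a common median of tested genes, 5 with the replicate block within windows, 0 with the block and only the arrays compared, and 1 to 3 with an array left out. For IFN alpha minus mock, 189 genes became 44, 459 with the block and 38 with the block and only the arrays compared, and 148 to 803 with an array left out; its 10 members became 2, 3 with the block and only the arrays compared, and 6 to 15. For IFN gamma minus IFN alpha, 383 genes became 138 with only the arrays compared, 912 with the replicate block and 1118 with both, and 295 to 389 with an array left out; 14 members became 8, and 9 to 16.

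For IFN alpha at 150-180 against 0-30 min, 1035 genes became 2094 with only the arrays compared, 3676 with array weights, 2165 with the replicate block and 668 to 816 with an array left out, where 28 to 30 members were called. Against 30-60 min, 5849 genes became 9490 without the filter and 5212 to 5634 with an array left out, and 32 members became 20 with a filter at 6 and 28 to 34. For 30-60 against 0-30 min, 5853 genes became 9452 without the filter and 5128 to 5537, with 20 to 25 members. The rule gave 46 members, 29 with a late threshold of 1.5 and 45 to 48 with a replicate left out, of which 37 to 41 were among the 46; 13 of the 46 were lost at an early threshold of 0.3 and 11 with the mean of kept probe sets.

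Centring moved the split of higher and lower calls. With a common median of tested genes, chosen after seeing the data, it was 203 and 173, against 158 and 225, for IFN gamma minus IFN alpha; 146 and 22, against 182 and 7, for IFN alpha minus mock; 2202 and 2607, against 4835 and 1014, at 150-180 against 30-60 min; and 2455 and 2088, against 959 and 4894, at 30-60 against 0-30 min. Under it Il31ra turned to -0.03 at 150-180 against 30-60 min and Slc12a7 to 0 at 30-60 against 0-30 min. No other single-gene call reversed under the alternatives run. The causes were not tested.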
